A study of Mus musculus with 9 samples.

Results

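The genes described here are 10 regulators and markers of muscle wasting and cell stress. They are the ubiquitin ligase genes Fbxo32, Trim63 and Fbxo30, the transcription factor genes Foxo1 and Foxo3, the stress response genes Gadd45a, Gadd45b and Gadd45g, and the metallothionein genes Mt1 and Mt2. They were chosen by name, with earlier results of these data known. All 10 were found among the 49568 rows of the deposited count table and were among the 14986 genes with enough counts to be tested. All libraries were made from gastrocnemius, a muscle of the calf, and the strain was C57Bl6J, with animals of about 8 weeks. RL is the irradiated limb, given 8.2 Gy 3 times, read here as 3 sessions of that dose, although the labels do not say whether it is the dose per session. The labels put irradiation at 4 weeks of age and sampling 3 weeks after it, intervals that do not add up to the stated age. CL is the opposite limb of the same mice, for which the labels give no dose. CTL is muscle of mice that received 0 Gy. Each group held 3 libraries of total RNA, and RL and CL libraries with the same number came from the same mouse, so the 9 libraries came from 6 mice.

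Muscle that is unused, starved or denervated breaks down its own proteins. FoxO transcription factors, held in check by insulin and IGF-1 signalling through AKT, switch on genes of the ubiquitin-proteasome system and of autophagy. Fbxo32 encodes atrogin-1 and Trim63 encodes MuRF1, the muscle ubiquitin ligases most used as readouts of that programme, and Fbxo30 encodes MUSA1, a further ligase that BMP signalling keeps low. Gadd45 proteins are small stress-induced partners of kinases and DNA repair factors. Gadd45a is also a target of p53 and is induced in denervated muscle. Metallothioneins are small cysteine-rich proteins that bind zinc and copper and are induced by metals, glucocorticoids and oxidative stress.

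At 3 weeks after irradiation none of the ligase, FoxO, Gadd45 or metallothionein genes passed the edgeR test, and the largest differences from CTL among the 10 genes were lower Gadd45b values in both limbs of irradiated mice. By edgeR's quasi-likelihood test with Benjamini-Hochberg adjustment over all tested genes, 0 of the 10 passed an adjusted p of 0.05 in RL against CTL, where 0.514% of all tested genes were called. Likewise 0 of the 10 passed in CL against CTL (0% of all genes called) and 0 of the 10 in RL against CL (0.0734%). At an unadjusted p under 0.05, only Gadd45b stood out, in RL against CTL and in CL against CTL, where 12% and 6.65% of all tested genes had such a p. Genes higher made up 6.56% and genes lower 5.44% in RL against CTL, and 4.46% and 2.19% in CL against CTL. In RL against CL none of the 10 had such a p (4.26% of all genes, 2.08% higher and 2.19% lower), and the genes called there were 0.0534% higher and 0.02% lower. The genes called in RL against CTL were 0.334% higher and 0.18% lower. DESeq2 called Gadd45b in both comparisons with CTL, where it called 2.05% and 0.0983% of the genes to which it gave an adjusted p, and none of the 10 in RL against CL (0.199%). The log2 fold change was above 0 for 8 of the 10 genes in RL against CTL (48.6% of all tested genes), 8 of 10 in CL against CTL (49.1%) and 4 of 10 in RL against CL (48.3%). The median over the 10 genes was 0.06 in RL against CTL, 0.13 in CL against CTL and -0.10 in RL against CL, beside medians over all tested genes of -0.0083, -0.0036 and -0.0071.

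**Figure D1:**
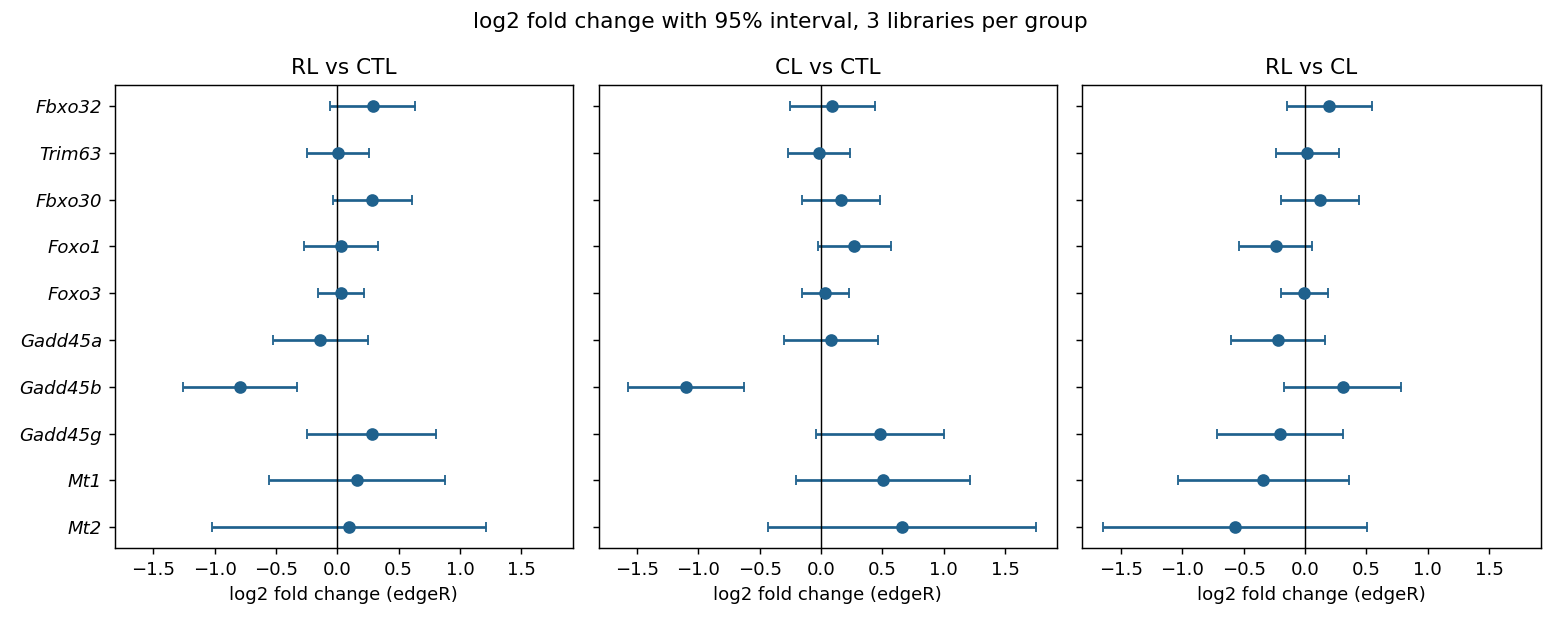
Each point is the log2 fold change of 1 gene in 1 comparison, with the 95% interval from edgeR's fit of all 9 libraries (3 per group), and the vertical line marks 0. The interval of Gadd45b lies below 0 in RL vs CTL (-1.26 to -0.32) and in CL vs CTL (-1.57 to -0.63), and every other interval includes 0.

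Library totals ran from 37666237 to 42768014 counts in RL, 40072022 to 44587520 in CL and 30836057 to 41784144 in CTL. The sum of 10 myofibre markers ran from 159700 to 188700 CPM in RL, 165800 to 211500 CPM in CL and 211200 to 235300 CPM in CTL, with all 10 detected. Here CPM is a count scaled to a common library size, the total adjusted by trimmed means (TMM). Library CL 1 stood apart, its log2 CPM correlating with those of the other 8 at a median r of 0.969, where the others had medians of 0.979 to 0.987. Its summed level of 6 lymphocyte markers was 17.4 CPM, against at most 0.437 CPM in each of the other libraries. In RL 2 the sum of 4 keratinocyte and skin markers was 7.81 CPM, against at most 0.720 CPM in each of the other libraries. For the 10 genes, results that rest on CL 1 are given below with and without it.

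Among the ligases, Trim63 was nearly level across the groups. Trim63 (ENSMUSG00000028834.13, chromosome 4, 134315120 to 134329629, plus strand) had 95.8, 93.0 and 96.9 CPM in RL 1, 2 and 3, 77.8, 101.7 and 102.2 CPM in CL and 96.8, 96.1 and 91.7 CPM in CTL. The lowest value was that of CL 1, and the groups overlapped. In RL against CTL the log2 fold change was 0.0055 ± 0.117 (SE, 95% interval -0.25 to 0.26, edgeR adjusted p = 0.991). The data therefore bound any mean difference to between 0.841-fold and 1.2-fold under this model. Leaving out CL 1 changed the sign of Trim63 in CL against CTL, with a log2 fold change of 0.10 in place of -0.016, and in RL against CL, with -0.079 in place of 0.021.

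The promoter of Trim63 is shown because a FoxO core motif lies in it and FoxO factors are known to act on this gene. The window covers 250 bases before and 50 after the RefSeq start (chr4:134314870-134315169, GRCm38.p6, plus strand, 5′ to 3′), and capitals mark GTAAACA, here as its reverse complement.
Trim63 promoter: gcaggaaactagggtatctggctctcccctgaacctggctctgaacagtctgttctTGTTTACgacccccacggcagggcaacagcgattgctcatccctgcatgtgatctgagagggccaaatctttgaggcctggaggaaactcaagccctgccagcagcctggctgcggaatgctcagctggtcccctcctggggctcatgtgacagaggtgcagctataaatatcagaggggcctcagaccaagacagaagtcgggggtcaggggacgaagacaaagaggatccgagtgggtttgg
The match starts 194 bases before the annotated start. GTAAACA on either strand occurs in 3.65% of 32851 RefSeq promoter windows of 300 bases. Of the 9 genes matched in that table, all but Fbxo32, only Trim63 held it. A match is a description of letters and not a bound site.

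Fbxo32 (ENSMUSG00000022358.7, chromosome 15, 58175879 to 58214932, minus strand) had 267, 179.5 and 189 CPM in RL, 158, 209 and 187 CPM in CL and 184, 166 and 170.1 CPM in CTL. A single library, RL 1, lay far above the rest, and RL 2 lay between CTL libraries, so the groups overlapped. Its log2 fold change was 0.29 ± 0.16 (SE, adjusted p = 0.517 by edgeR) in RL against CTL and 0.09 ± 0.16 (adjusted p = 0.948) in CL against CTL. Without RL 1 the value for RL against CTL was 0.09 (adjusted p = 0.862). RL 1 came from the same mouse as CL 1, whose Fbxo32 was the lowest of the 9, and in that mouse RL exceeded CL by 0.76 on the log2 scale, against -0.22 and 0.02 in the other mice.

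Fbxo30 (ENSMUSG00000047648.13, chromosome 10, 11281330 to 11298052, plus strand) had 17.0, 17.7 and 18.3 CPM in RL, 14.8, 17.4 and 16.7 CPM in CL and 14.0, 11.5 and 18.1 CPM in CTL. The RL values were tight and the CTL values were spread, with CTL 3 above 2 of the RL libraries. Set against CTL, RL gave a log2 value of 0.28 ± 0.15 (SE, 95% interval -0.035 to 0.61), which did not pass by edgeR (adjusted p = 0.482). Its size depended on single controls, at 0.14 without CTL 2 and 0.47 without CTL 3. RL was above CL in all 3 mice, by 0.20, 0.03 and 0.14 on the log2 scale. This difference did not pass by edgeR either, without the mouse as a block (adjusted p = 0.999) or with it (adjusted p = 0.863).

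**Figure D2:**
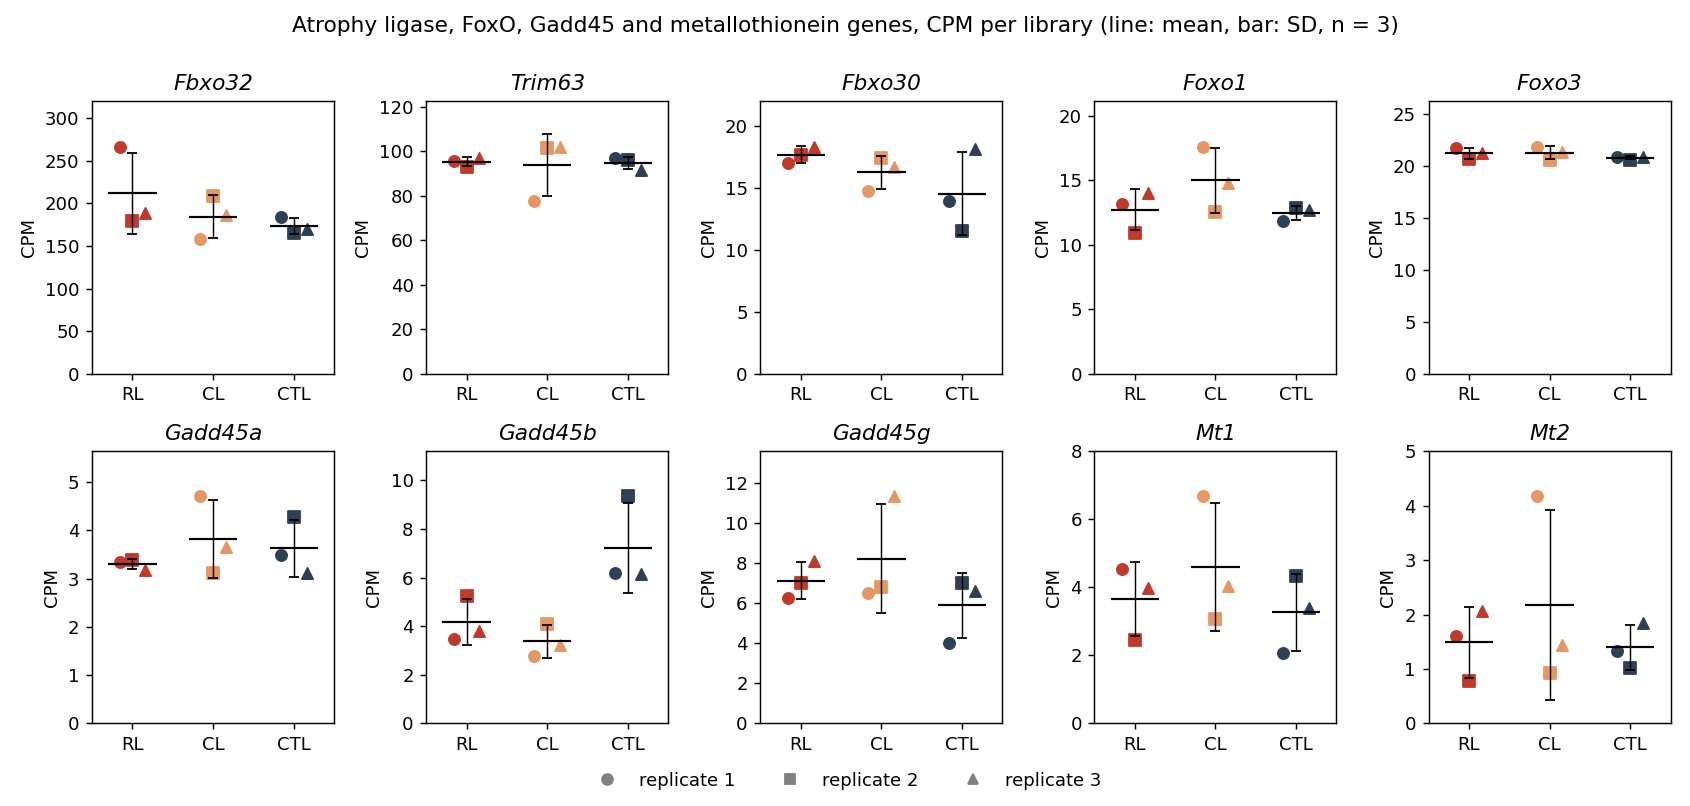
CPM of each of the 10 genes in every library, with RL, CL and CTL from left to right, marker shapes for replicate numbers, a line for the mean and a bar for the SD (n = 3). Axes start at 0 and differ between panels; Gadd45b is the gene whose CTL values (6.16 to 9.35 CPM) all lie above those of RL (3.48 to 5.24 CPM) and CL (2.78 to 4.11 CPM).

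Of the FoxO genes, Foxo3 was close to level. Foxo3, a main driver of atrophy genes in muscle (ENSMUSG00000048756.11, chromosome 10, 42181841 to 42276755, minus strand), had 21.7, 20.7 and 21.3 CPM in RL, 21.9, 20.6 and 21.4 CPM in CL and 20.8, 20.6 and 20.9 CPM in CTL. Its highest library exceeded its lowest 1.06-fold over all 9. The SD of its log2 CPM over the libraries was 0.033, the fourth lowest of the 14986 tested genes, where the median was 0.215. Among the 3462 genes within 1 log2 unit of its level the median SD was 0.148. This rank was looked up after the values of Foxo3 had been seen. Foxo3 had 703 to 1064 counts per library. The sampling noise of such counts was not set beside this SD, so the rank is a description only. The log2 fold changes of Foxo3 were 0.03 ± 0.087 (SE, 95% interval -0.16 to 0.22) in RL against CTL, 0.03 ± 0.087 in CL against CTL and -0.0046 ± 0.087 in RL against CL, with edgeR adjusted p of 0.933, 0.967 and 0.999. The FoxO proteins are controlled mainly by phosphorylation and export from the nucleus, which transcript counts do not measure.

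Foxo1 (ENSMUSG00000044167.6, chromosome 3, 52268336 to 52353221, plus strand) varied more, with its highest library 1.61-fold above its lowest. It had 13.2, 10.9 and 14.1 CPM in RL, 17.6, 12.6 and 14.8 CPM in CL and 11.8, 12.8 and 12.7 CPM in CTL. The highest value was that of CL 1 and the RL values lay on both sides of CTL. The log2 fold change was 0.03 ± 0.14 (SE, adjusted p = 0.957 by edgeR) in RL against CTL and 0.27 ± 0.14 (adjusted p = 0.777) in CL against CTL. Without CL 1 the CL against CTL value was 0.13. RL was below CL in all 3 mice, by log2 ratios of -0.42, -0.20 and -0.08. This did not pass in the edgeR fit that did not pair the limbs (log2 fold change -0.24, adjusted p = 0.999 with all libraries). In that fit it was -0.086 without CL 1. With the mouse as a block it was -0.23 (adjusted p = 0.638 by edgeR).

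Within the Gadd45 family only Gadd45b had groups that did not overlap. Gadd45b (ENSMUSG00000015312.9, chromosome 10, 80930073 to 80932204, plus strand) encodes a stress sensor that binds the kinase MAP3K4 and takes part in DNA demethylation. It had 3.48, 5.24 and 3.79 CPM in RL 1, 2 and 3 and 2.78, 4.11 and 3.24 CPM in CL 1, 2 and 3, against 6.17, 9.35 and 6.16 CPM in CTL 1, 2 and 3. Neither limb overlapped with CTL. In RL against CTL 20.7% of all tested genes had groups that did not overlap (10.5% higher and 10.2% lower), and in CL against CTL 9.4% did (3.9% higher and 5.5% lower). In RL against CL 8.3% did (3.94% higher and 4.36% lower), and none of the 10. Mean Gadd45b CPM was 4.17 ± 0.940 in RL, 3.37 ± 0.678 in CL and 7.23 ± 1.84 in CTL (SD over 3 libraries). Averaged over the limbs of each mouse, irradiated mice had 3.13, 4.68 and 3.51 CPM.

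The log2 fold change of Gadd45b was -0.79 ± 0.21 (SE, adjusted p = 0.135 by edgeR) in RL against CTL, a 0.578-fold level. It was -1.10 ± 0.22 (SE, adjusted p = 0.560 by edgeR) in CL against CTL, a 0.466-fold level and the seventh smallest p of all tested genes. DESeq2 gave adjusted p = 0.0499 in RL against CTL and adjusted p = 0.0180 in CL against CTL. The authors' deposited table gave adjusted p = 0.0539 for RL against CTL and 0.0200 for CL against CTL, with log2 fold changes of -0.56 and -0.78, and called 2.22% and 0.0628% of the genes with an adjusted p. These comparisons share the CTL libraries. CTL 2 was the highest, and without it the log2 fold changes were -0.56 (adjusted p = 0.425) in RL against CTL and -0.87 (adjusted p = 0.964) in CL against CTL. Without CL 1 edgeR called Gadd45b in RL against CTL at adjusted p = 0.0475, in a fit that called 600 genes there in place of 77. In CL against CTL, which holds CL 1, the value without it was -0.98 (adjusted p = 0.736 by edgeR). CTL 2 also had the lowest share of counts from mitochondrially encoded genes, 31.1%, against 42.4 to 51.8% in the other 8 libraries, and the part of this in the Gadd45b value was not tested. With those genes left out of the totals the log2 fold changes were -0.79 (adjusted p = 0.138) in RL against CTL and -1.10 (adjusted p = 0.549) in CL against CTL. The sum of 10 macrophage markers ran from 157 to 215 CPM in RL, 100.8 to 226 CPM in CL and 81.5 to 114 CPM in CTL. The sum of 6 tenocyte (tendon cell) markers was lower in RL, at 74.2 to 86.8 CPM, than in CTL, at 108.8 to 150.8 CPM. So were 6 Schwann cell markers, at 33.4 to 47.2 CPM in RL and 49.6 to 56.8 CPM in CTL, and the myofibre sum given above. In CL the tenocyte, Schwann and myofibre sums overlapped with CTL. The part of any of these cells in the Gadd45b difference was not tested. In whole muscle, fewer cells of a type and less RNA per cell cannot be told apart.

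**Figure D3:**
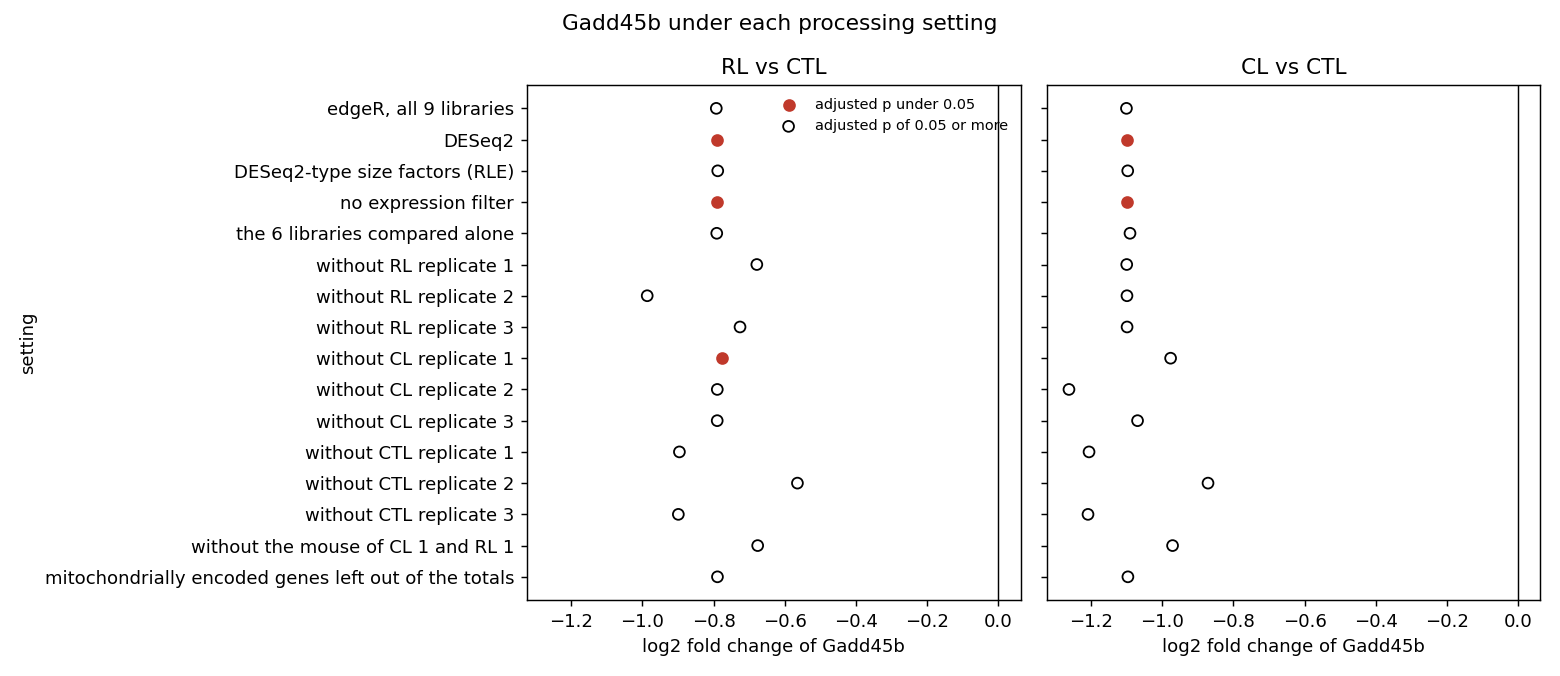
log2 fold change of Gadd45b (x axis) under each processing setting (y axis) in RL vs CTL and CL vs CTL; filled points have an adjusted p under 0.05. All settings lie below 0, between -0.99 and -0.56 in RL vs CTL and between -1.26 and -0.87 in CL vs CTL, while only 3 and 2 alternatives pass the threshold.

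Gadd45g (ENSMUSG00000021453.2, chromosome 13, 51846678 to 51848468, plus strand), a growth-arrest member of the family, had 6.27, 7.003 and 8.13 CPM in RL, 6.54, 6.82 and 11.4 CPM in CL and 4.04, 7.02 and 6.63 CPM in CTL. CTL 1 was the lowest and CL 3 the highest, and the groups overlapped. The log2 fold change was 0.28 ± 0.24 (SE, adjusted p = 0.716) in RL against CTL and 0.48 ± 0.24 (adjusted p = 0.777) in CL against CTL by edgeR. Without CTL 1 these were 0.07 (adjusted p = 0.943) and 0.27 (adjusted p = 0.901). Without CL 3 the CL against CTL value was 0.19 (adjusted p = 0.925). Gadd45a (ENSMUSG00000036390.8, chromosome 6, 67035096 to 67037457, minus strand) had 3.35, 3.38 and 3.18 CPM in RL, 4.71, 3.12 and 3.66 CPM in CL and 3.49, 4.28 and 3.12 CPM in CTL. The RL values lay close together inside the CTL range. Its log2 difference between RL and CTL was -0.14 ± 0.18 (SE, adjusted p = 0.824 by edgeR), with a 95% interval of -0.52 to 0.25. Without CTL 2, the highest control, it was -0.003, and without CTL 3 it was -0.24. The fellow p53 target Cdkn1a, a cell cycle inhibitor gene, averaged 11.6 ± 2.17 CPM in RL, against 1.83 ± 0.307 CPM in CTL (SD over 3 libraries; log2 fold change 2.66, adjusted p = 0.00278 by edgeR). In CL Cdkn1a had 5.61, 3.05 and 2.73 CPM, all above the CTL values of 1.58 to 2.17 CPM, as in 3.9% of all tested genes.

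The promoters of Gadd45b (chr10:80929841-80930140) and Gadd45g (chr13:51846425-51846724) are shown because both windows hold the E-box CACGTG. Basic helix-loop-helix factors such as MYC, USF and the clock activators are known to bind it. Neither gene passed by edgeR. Both windows are from RefSeq, GRCm38.p6, plus strand, 5′ to 3′, and capitals mark CACGTG, which reads the same on both strands. The motif was chosen after the values had been seen.
Gadd45b promoter: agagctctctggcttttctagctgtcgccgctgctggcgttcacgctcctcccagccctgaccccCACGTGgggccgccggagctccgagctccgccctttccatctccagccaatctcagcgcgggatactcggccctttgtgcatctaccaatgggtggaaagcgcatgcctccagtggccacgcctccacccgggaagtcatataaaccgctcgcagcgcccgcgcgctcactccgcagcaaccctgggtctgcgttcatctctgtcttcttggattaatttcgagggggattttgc
Gadd45g promoter: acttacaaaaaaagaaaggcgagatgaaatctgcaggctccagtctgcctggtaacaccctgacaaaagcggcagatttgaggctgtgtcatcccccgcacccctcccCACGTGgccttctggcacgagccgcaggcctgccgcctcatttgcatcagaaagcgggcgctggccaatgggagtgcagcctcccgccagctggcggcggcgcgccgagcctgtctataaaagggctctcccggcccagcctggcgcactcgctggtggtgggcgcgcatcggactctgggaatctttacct
The E-box starts 185 bases before the annotated start of Gadd45b and 142 before that of Gadd45g, and it occurs in 7.15% of the 32851 windows. The Gadd45a window has none. The CCAAT box, also searched for, lies in the Gadd45a, Gadd45b and Gadd45g windows and in 37.4% of all windows.

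The metallothionein genes lie side by side on chromosome 8 and shared their highest library, CL 1. Mt1 (ENSMUSG00000031765.8, 94179082 to 94180327, plus strand) had 4.53, 2.45 and 3.98 CPM in RL, 6.68, 3.07 and 4.04 CPM in CL and 2.08, 4.34 and 3.39 CPM in CTL. Mt2 (ENSMUSG00000031762.7, 94172664 to 94173568, plus strand) had 1.61, 0.784 and 2.06 CPM in RL, 4.17, 0.919 and 1.44 CPM in CL and 1.33, 1.01 and 1.84 CPM in CTL. The values of the groups overlapped throughout, and RL 2 was the lowest library of its group for both genes. Mt2 rested on 32 to 203 counts per library and Mt1 on 83 to 325.

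In RL against CTL the log2 fold changes were 0.16 ± 0.33 for Mt1 and 0.09 ± 0.51 for Mt2 (SE; edgeR adjusted p = 0.897 and 0.966). In CL against CTL they were 0.50 ± 0.32 for Mt1 and 0.66 ± 0.50 for Mt2 (SE; edgeR adjusted p = 0.832 and 0.867). Without CL 1 the CL against CTL values were 0.12 for Mt1 and -0.24 for Mt2, so 1 library set the size for Mt1 and the sign for Mt2. The 95% interval of Mt2 in RL against CTL, -1.02 to 1.21, spans a 0.492-fold to 2.31-fold level, so only large differences could have been detected for this gene. Reads shared by the related Mt1 and Mt2 transcripts could have been split between them, since the counting rules are unknown.

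The promoters of Mt2 (chr8:94172368-94172667) and Mt1 (chr8:94178839-94179138) are shown for their metal response element cores, the sites through which the zinc sensor MTF-1 is known to act. The windows are from RefSeq, GRCm38.p6, plus strand, 5′ to 3′, and capitals mark TGCACNC or TGCGCNC on either strand.
Mt2 promoter: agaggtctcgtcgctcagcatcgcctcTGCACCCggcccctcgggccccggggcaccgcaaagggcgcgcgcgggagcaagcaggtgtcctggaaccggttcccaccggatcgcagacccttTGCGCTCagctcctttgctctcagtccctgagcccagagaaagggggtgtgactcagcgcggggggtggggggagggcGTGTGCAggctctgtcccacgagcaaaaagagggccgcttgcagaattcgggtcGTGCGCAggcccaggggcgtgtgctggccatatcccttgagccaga
Mt1 promoter: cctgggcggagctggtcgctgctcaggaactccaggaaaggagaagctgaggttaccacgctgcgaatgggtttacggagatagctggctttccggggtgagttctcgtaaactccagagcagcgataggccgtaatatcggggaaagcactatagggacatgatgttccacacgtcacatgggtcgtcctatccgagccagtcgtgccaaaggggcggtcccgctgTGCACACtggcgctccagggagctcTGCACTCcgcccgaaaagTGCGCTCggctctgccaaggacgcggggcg
The Mt2 window holds 4 matches and the Mt1 window 3, none overlapping another. They start at positions -223, -128, -50 and 5 in Mt2 and at -23, 3 and 21 in Mt1, so some lie after the RefSeq start. The GENCODE start of Mt2 lies 46 bases after the RefSeq one. At least 1 match occurs in 25.7% of the 32851 windows, at least 3 in 1.97% and at least 4 in 0.517%. Gadd45g holds 2 matches and Foxo3 1.

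**Figure D4:**
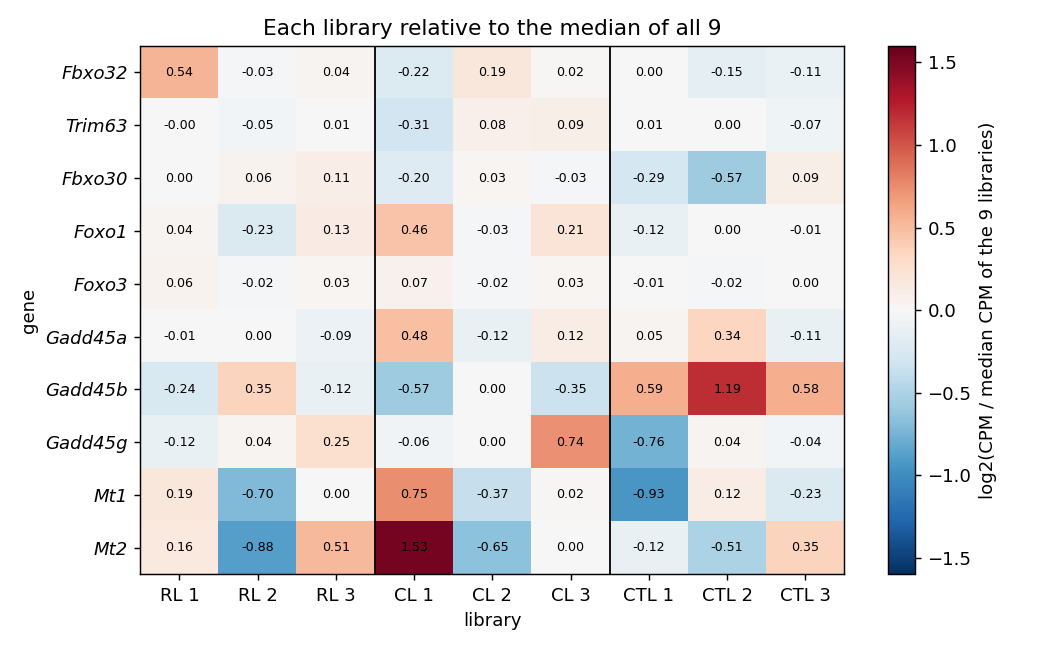
log2 ratio of each library's CPM to the median of the 9 libraries, for the 10 genes in rows and the libraries in columns, with RL, CL and CTL from left to right. Gadd45b is high in the 3 CTL columns (0.58 to 1.19), and CL 1 holds the strongest value of Mt2 (1.53).

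Library CL 1 held the highest value of 5 of the 10 genes (Foxo1, Foxo3, Gadd45a, Mt1 and Mt2) and the lowest of 3 (Fbxo32, Trim63 and Gadd45b). Over all tested genes CL 1 was the highest library in 20.8% and the lowest in 21.1%. Other markers were also high in it. Myh3, the embryonic myosin of newly formed fibres, had 33.0 CPM in CL 1 and at most 9.78 CPM elsewhere, this in RL 1 of the same mouse. The acetylcholine receptor subunit gene Chrna1 had 13.2 CPM there and at most 7.11 CPM elsewhere, and the heme-degrading enzyme gene Hmox1 had 12.2 CPM and at most 4.89 CPM elsewhere. Fibro-adipogenic markers summed to 2056 CPM in CL 1 and at most 1300 CPM elsewhere, and adipocyte markers to 174 CPM and at most 109.3 CPM elsewhere. Macrophage markers summed to 226 CPM in CL 1, close to 215 CPM in RL 1 and 212 CPM in RL 3, against 100.8 and 134 CPM in CL 2 and 3. Whether these cells or fibres carried the high Mt1, Mt2, Foxo1 and Gadd45a values was not tested.

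RL and CL were also compared within each mouse. Gadd45b was above the opposite limb in all 3 irradiated limbs, by log2 ratios of 0.33, 0.35 and 0.23, although both limbs were below CTL. This difference did not pass in the edgeR fit that did not pair the limbs, at 0.31 ± 0.22 on the log2 scale (SE, adjusted p = 0.999). In that fit it was 0.11 without RL 2 and 0.20 without CL 1. With the mouse as a block it was 0.30 (adjusted p = 0.646 by edgeR). Fbxo30 was also higher in RL in 3 of 3 mice, while Foxo1 and Mt1 were lower in 3 of 3. Some of these ratios were small, at 0.03 for Fbxo30 in the mouse of RL 2 and -0.02 for Mt1 in the mouse of RL 3. The share of all tested genes with the same sign in 3 of 3 mice was not counted, so these signs are a description only. Mt2 differed most between mice, with log2 ratios of -1.37, -0.23 and 0.51 in the mice of CL 1, 2 and 3. With the mouse as a block, edgeR called 73 genes in place of 11 over all genes and 0 of the 10, whose adjusted p ran from 0.638 to 0.995.

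**Figure D5:**
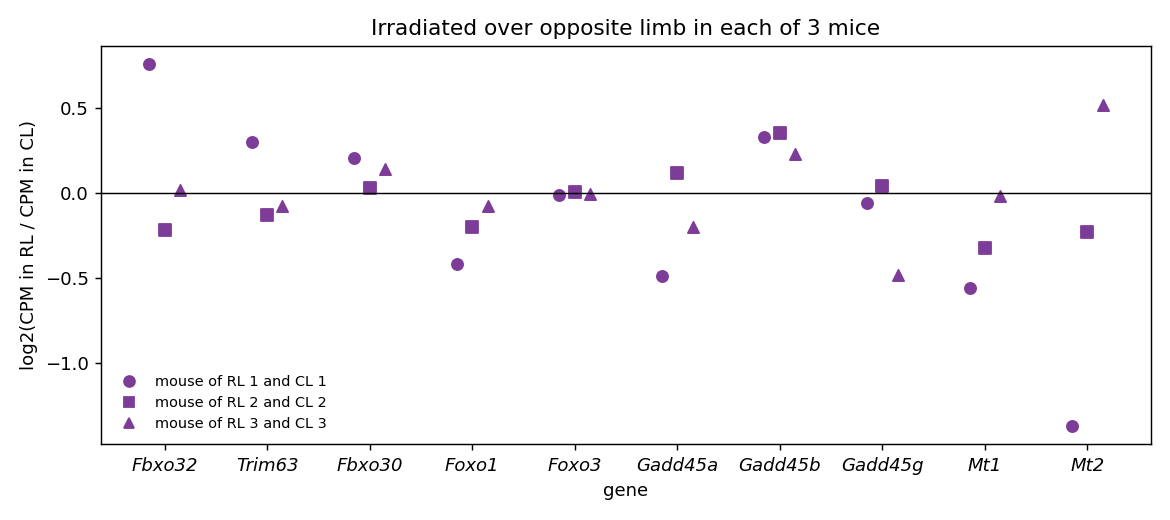
log2 ratio of CPM in RL over CPM in CL for each of the 10 genes (x axis) in each of 3 mice (marker shapes), with a line at 0. Gadd45b and Fbxo30 lie above 0 in all 3 mice, Foxo1 and Mt1 below 0 in all 3, and Foxo3 between -0.0102 and 0.0043.

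Per length of exons, Trim63 and Fbxo32 were the most abundant of the 10. Levels in CPM per kilobase of exon sequence in GENCODE vM21 were 33.5 ± 0.705 in RL, 33.0 ± 4.91 in CL and 33.4 ± 0.973 in CTL for Trim63, and 30.4 ± 6.86, 26.5 ± 3.67 and 24.8 ± 1.34 for Fbxo32 (SD, n = 3 each). Over all 9 libraries the ranges of these genes overlapped. Gadd45g followed at a mean of 6.05 CPM per kilobase (3.44 to 9.69), above 3.11 for Fbxo30, 3.10 for Gadd45b, 3.08 for Mt1, 2.87 for Mt2 and 2.79 for Foxo3, whose ranges all overlapped with one another, and that of Gadd45g with all but Foxo3. Gadd45a at 2.03 and Foxo1 at 1.55 CPM per kilobase were the lowest, with ranges of 1.77 to 2.67 and 1.26 to 2.03 that overlapped.

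Other genes of the surrounding pathways were counted in 10 lists. Of 20 other muscle ubiquitin ligase and atrophy genes, 0 were called higher and 0 lower in RL against CTL, with a median log2 fold change of -0.11. Fbxo21, a FoxO-induced ligase gene, was closest, with 5.63, 5.68 and 6.02 CPM in RL, 7.20, 7.16 and 5.99 CPM in CL and 8.68, 9.24 and 7.14 CPM in CTL. All RL values were below all CTL values, as in 10.2% of all tested genes. Of the 20 genes 4 had RL and CTL values that did not overlap, beside 20.7% of all tested genes. The log2 fold change of Fbxo21 was -0.53 ± 0.13 (SE), and it passed by DESeq2 (adjusted p = 0.0465) and not by edgeR (adjusted p = 0.0933). Of 16 autophagy genes 0 passed in RL against CTL (median 0.01). Tfeb, the master regulator of lysosome genes, stood at -0.30 ± 0.099 on the log2 scale (SE, adjusted p = 0.225 by edgeR). Of 16 other FoxO family and target genes 0 passed (median -0.03), with the translation inhibitor gene Eif4ebp1 at -0.36 ± 0.11 (SE, adjusted p = 0.212 by edgeR).

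Upstream, 0 of 18 insulin, AKT and AMPK signalling genes passed in RL against CTL (median -0.03). The growth factor receptor gene Igf1r had 17.8, 16.2 and 17.5 CPM in RL, 16.4, 16.6 and 17.1 CPM in CL and 19.3, 19.2 and 20.5 CPM in CTL. Both limbs were below CTL in every library, as were 10.2% of all tested genes in RL and 5.5% in CL. Its log2 fold changes were -0.20 ± 0.091 in RL and -0.23 ± 0.091 in CL (SE), neither of which passed by edgeR (adjusted p = 0.428 and 0.692). Among BMP and myostatin pathway genes 0 of 15 passed by edgeR in either limb (medians -0.07 in RL and -0.09 in CL). Id1, a direct BMP target gene, had 3.84, 3.75 and 3.42 CPM in RL and 3.64, 4.38 and 4.06 CPM in CL, against 1.63, 2.56 and 2.08 CPM in CTL. Both limbs were above CTL in every library, as were 10.5% of all tested genes in RL and 3.9% in CL. The log2 fold changes of Id1 were 0.81 ± 0.18 in RL (adjusted p = 0.0651 by edgeR, 0.0118 by DESeq2) and 0.95 ± 0.17 in CL (adjusted p = 0.525 by edgeR, 0.0191 by DESeq2). Like Gadd45b, Id1 thus differed from CTL by DESeq2 in the limb that was not the irradiated one as well as in RL.

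Inducers and partners of the Gadd45 and metallothionein genes were tested too. Of 15 glucocorticoid responsive genes 0 passed in RL against CTL (median -0.05) or CL against CTL (0.07). The smallest p was that of Glul in RL against CTL (log2 fold change -0.37 ± 0.15, SE, adjusted p = 0.345 by edgeR). In CL against CTL it was that of Errfi1 (0.61 ± 0.21, SE, adjusted p = 0.692 by edgeR). The transcription factor gene Cebpd had 6.24, 10.6 and 14.0 CPM in RL, 5.04, 11.3 and 16.8 CPM in CL and 5.92, 7.27 and 6.19 CPM in CTL, with similar values in the limbs of a mouse. Its log2 fold change in CL against CTL was 0.77 ± 0.37 (SE, adjusted p = 0.763 by edgeR). Of 16 metal handling genes 0 passed in RL against CTL (median -0.02) or CL against CTL (0.05). Of 17 Gadd45 partner and p38 or JNK pathway genes 0 passed in RL against CTL (median -0.10). There Map2k6, the gene of a kinase that activates p38, stood at -0.38 ± 0.11 on the log2 scale (SE, adjusted p = 0.152 by edgeR). Of 15 denervation responsive genes 1 rose and 14 did not pass in RL against CTL, and of 16 p53 target genes 1 rose and 15 did not pass. The gene that rose was Cdkn1a in both lists. Of the 16 p53 target genes DESeq2 called 6 higher and 0 lower in RL against CTL, where it called 2.05% of all genes with an adjusted p. By edgeR 10 of the 16 had an unadjusted p under 0.05, all higher, where 6.56% of all genes were. The log2 fold change was above 0 for 15 of 16 (48.6% of all genes), with a median of 0.51. For CL against CTL it was above 0 for 13 of 16 (49.1% of all genes), with a median of 0.15, and edgeR called 0. For RL against CL it was above 0 for 15 of 16 (48.3% of all genes), with a median of 0.34, and edgeR called 1 (0.0734% of all genes). There 9 of the 16 had an unadjusted p under 0.05 by edgeR, all higher, where 2.08% of all genes were. In CL against CTL 0 denervation responsive genes passed, although 7 had an unadjusted p under 0.05 (4.46% of all genes were higher at that level), with a median log2 fold change of 0.54. Myh3, Chrna1 and Ncam1, a neural cell adhesion molecule, had their highest value in CL 1.

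The genes whose log2 CPM over the 9 libraries was most like that of 3 of the 10 were listed from 9560 candidates, as a description over libraries that include both limbs of 3 mice. Closest to Fbxo32 were Stau2 (Pearson r = 0.900), Clcn4 (0.885) and Otub2 (0.873). Closest to Gadd45a were Ptpa (r = 0.959), Cul7 (0.950) and Cnppd1 (0.942). Closest to Mt2 were Soat1 (r = 0.958), Whsc1l1 (0.957) and Afap1 (0.957), which had r of 0.921, 0.895 and 0.979 over the 8 libraries without CL 1. Within the 10 genes Mt1 and Mt2 had r = 0.706 over 9 libraries and 0.415 without CL 1, and Fbxo32 and Trim63 had r = 0.471 over 9 libraries and 0.239 without CL 1.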

How the data were processed

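Total RNA from muscle frozen in Trizol was purified on columns and sequenced from stranded libraries, per the labels' protocols. The tests start from the raw counts that the authors deposited for each gene. The submitters' processing notes name the build GRCm38.p5 and the tool DESeq2. Aligner, counting rules and annotation: not given in the sources used here. For each comparison the authors also deposited a mean normalised signal, log2 fold changes, a statistic (unit score) and p-values. Their normalised and regularised log tables were not used.

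One edgeR fit (edgeR 4.0.16, R 4.3.3) held all 9 libraries in 3 groups with no covariates, TMM scaling and edgeR's expression filter, which left 14986 genes. A gene was called at an adjusted p under 0.05 (Benjamini-Hochberg over all of them). SEs were derived from the log2 fold change and its F statistic, and 95% intervals from that statistic's degrees of freedom. The procedure was tested on simulated data. Alternatives were DESeq2 1.42.0, other size factors, no filter, only the libraries compared, each library left out, the mouse of CL 1 and RL 1 left out, mitochondrially encoded genes left out, and the mouse as a block. CL and RL pair by the mouse numbers in the labels, and their deviations from the group means correlated at 0.294, 0.429 and 0.0716 within mice. CTL mice are other animals and were not paired. Libraries within a group come from separate mice and differed by more than sampling noise (chi-square per degree of freedom of at least 13.3).

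The 10 genes, the 10 further gene lists (169 entries) and the 12 marker lists were chosen with earlier results of these data known. From a further list, genes past the threshold or else up to 3 with the smallest p in a comparison could be named. For Fbxo32, Gadd45a and Mt2 the 5 genes of highest Pearson r among genes whose mean log2 CPM reached 1 could be named. Of 49568 rows, 26 carried date-like names, with at most 0.0536% of a library's counts. Gene coordinates are 1-based, from GENCODE vM21 on GRCm38.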

Additional observations from a re-analysis of the deposited data

How the results depend on the processing

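By edgeR 77 genes were called in RL against CTL, 0 in CL against CTL and 11 in RL against CL, and 0 of the 10 genes in each. In the same order DESeq2 called 333, 16 and 38 genes and no expression filter gave 896, 716 and 406, and each called 1, 1 and 0 of the 10, the 1 being Gadd45b. The 6 libraries compared alone gave 505, 0 and 4 genes, and leaving out the mouse of CL 1 and RL 1 gave 291, 0 and 20. With the mouse as a block 73 genes and 0 of the 10 were called in RL against CL, and the block changed no call among the 10. Leaving out 1 library at a time gave 2 (without RL 3 or CTL 2) to 600 (without CL 1) genes in RL against CTL, 0 to 1 in CL against CTL and 1 to 136 (without CL 1) in RL against CL. It gave 0 to 1 of the 10 in RL against CTL, the 1 being Gadd45b without CL 1. The cause of these shifts was not tested.

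Of 460 alternative log2 fold changes for the 10 genes in 3 comparisons, 429 kept their direction and their side of the threshold, 5 (all Gadd45b) came to pass it and 26 changed sign, none of them in a called gene. Without the mouse of CL 1 and RL 1 the sign changed in RL against CTL for Mt1 (-0.0153), in CL against CTL for Trim63 (0.105), Gadd45a (-0.0989) and Mt2 (-0.241), and in RL against CL for Fbxo32 (-0.1014), Trim63 (-0.1012) and Mt2 (0.2775). Leaving out 1 library at a time gave these ranges where a sign changed. In RL against CTL they were -0.0206 to 0.0291 for Trim63, -0.042 to 0.1359 for Foxo1, -0.0817 to 0.422 for Mt1 and -0.2134 to 0.4097 for Mt2. In CL against CTL they were -0.0741 to 0.1004 for Trim63, -0.1039 to 0.2182 for Gadd45a and -0.2448 to 1.0434 for Mt2. In RL against CL they were -0.002 to 0.3075 for Fbxo32, -0.0788 to 0.0849 for Trim63, -0.0318 to 0.0349 for Foxo3, -0.3267 to 0.0932 for Gadd45g, -0.5674 to 0.0596 for Mt1 and -0.9412 to 0.3564 for Mt2. Counts limit Mt2 most, at 32 to 203 per library, against 5721 to 10424 for Fbxo32.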
